A study of Caenorhabditis elegans with 165 samples.

Results

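A pair of Caenorhabditis elegans strains in which the X chromosome is joined to an autosome was pooled and compared with the wild-type laboratory strain N2. The 8 RNA-seq libraries of the fusion strains formed one group: 4 of strain 15eh1 (X;V in the sample titles, X joined to chromosome V) and 4 of strain YPT41 (X;II, X joined to chromosome II). The 4 N2 libraries formed the other, so that 12 of the 165 samples of the series were used. The members were chosen from the strain named in each label, and the aim was to find changes that go the same way in both fusions, as a fusion of X with any autosome would give. All libraries are total RNA of whole worms, titled L1-L3, early larvae, while the design text names L3. No treatment or other allele is given for any of the strains. Each fusion is represented by 1 strain, so an effect of the fusion and an effect of that strain's background cannot be told apart. Nothing in the labels says that libraries of a strain came from separate cultures, and p-values therefore measure the spread between these samples only.

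In C. elegans, hermaphrodites carry a pair of X chromosomes and lower the transcription of both through the dosage compensation complex, a condensin-like machine that is loaded on X and spreads along it. When X is joined to an autosome, the complex is known to spread some way into the autosomal part. Here the autosome differs between the strains and X is the part that both fusions share.

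Gene counts per library ranged from 8237095 to 31234047, and 13186 genes passed the filter on low counts. Replicate 1 of every strain stood apart: vitellogenins, the yolk proteins of the adult hermaphrodite intestine, took 6.81% to 12.58% of its counts and at most 0.0449% of the counts in replicates 2 to 4. The replicate number was therefore kept as a block, which compares each fusion library with N2 of the same number. Marker genes of germline, oocyte and embryo, sperm, intestine, neurons, muscle and epidermis were all represented, with 1 muscle marker at 0 in every library. Levels below are in CPM, counts scaled to library size with TMM, and are not divided by gene length.

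Only 2 genes changed in the same direction in both fusions strongly enough to pass the test of the 8 fusion libraries against N2 in this fit, and both fell. They were srw-85, a member of a chemoreceptor gene family on chromosome V, and herc-1, on chromosome I, which is related to ubiquitin ligases of the HERC type. With edgeR's quasi-likelihood test and Benjamini-Hochberg adjustment at 0.05 they made up 0.0152% of the 13186 tested genes, and no gene was called higher. DESeq2, run on the same libraries with the same block, called 158 genes, 126 higher and 32 lower, these 2 among them. The gene srw-85 was counted at 0.209, 0.776, 0.998 and 1.1 CPM in replicates 1 to 4 of 15eh1 and at 0.721, 1.38, 1.56 and 0.688 CPM in YPT41, against 3.46, 19.7, 20.1 and 16.9 CPM in N2. Every fusion library was below every N2 library, replicate 1 of N2 being the lowest of its group. The log2 fold change was −3.90 ± 0.31 (SE), or 0.067 of the N2 level (edgeR adjusted p = 0.000519). The gene herc-1 was counted at 17.6, 12.5, 16.0 and 18 CPM in 15eh1 and at 22.8, 18.8, 16.6 and 19.1 CPM in YPT41, against 80.3, 48.2, 43.6 and 54.6 CPM in N2. Here too the groups did not overlap, and the fusion libraries lay close together (17.7 ± 2.94 CPM, SD, n = 8) beside a wider N2 group (56.7 ± 16 CPM, SD, n = 4). Its log2 fold change was −1.65 ± 0.16 (SE), or 0.318 of the N2 level (edgeR adjusted p = 0.00209).

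Both genes fell by similar amounts in the strains taken singly. In a fit with 3 strain levels, srw-85 had a log2 fold change of −4.17 in 15eh1 (edgeR adjusted p = 0.00247) and −3.66 in YPT41 (edgeR adjusted p = 0.000797). The difference between the strains was −0.52, with a 95% interval of −1.38 to 0.35. For herc-1 the values were −1.79 in 15eh1 (edgeR adjusted p = 0.00458) and −1.52 in YPT41 (edgeR adjusted p = 0.00176), with a difference of −0.26 and a 95% interval of −0.66 to 0.13. Neither gene lies on X, and only srw-85 is on a chromosome that one of the strains has joined to X. These were also the only genes called in both strains with the same sign. As a single group against N2, both were called in each fit that left out 1 library, in replicates 2 to 4 alone and without the block. In the strains singly, only srw-85 was called in both in replicates 2 to 4, and neither was without the block.

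The genes beside srw-85 and herc-1 on the chromosome were compared in the same way. Of the 10 tested genes nearest srw-85, 5 on each side, none passed the single-group test with edgeR, and their log2 fold changes ranged from −0.92 to 0.46. The strains differed here. In the strain with X joined to V all 10 were below 0, from −1.17 to −0.17. In YPT41 they lay on both sides, from −1.28 to 1.12. Whether this local difference bears on the fall of srw-85 was not tested. In the single group, M04C3.2 and C25F9.4 were lower at an unadjusted p under 0.05, by −0.92 ± 0.29 and −0.83 ± 0.22 (SE). Around herc-1 the 10 neighbours ranged from −0.38 to 1.79, none passed the single-group test with edgeR, and 3 had an unadjusted p under 0.05. The largest of these, Y48G8AL.13, stood 3 tested genes away and was higher in the fusions, by 1.79 ± 0.44 (SE), opposite in sign to herc-1 itself. In the fit of 3 strains, Y48G8AL.13 was called on average over the strains (edgeR adjusted p = 0.0435) and in YPT41 (edgeR adjusted p = 0.00604), and M04C3.2 was called in YPT41 (edgeR adjusted p = 0.0357). With DESeq2, C25F9.4 and Y48G8AL.13 were called.

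**Figure D1:**
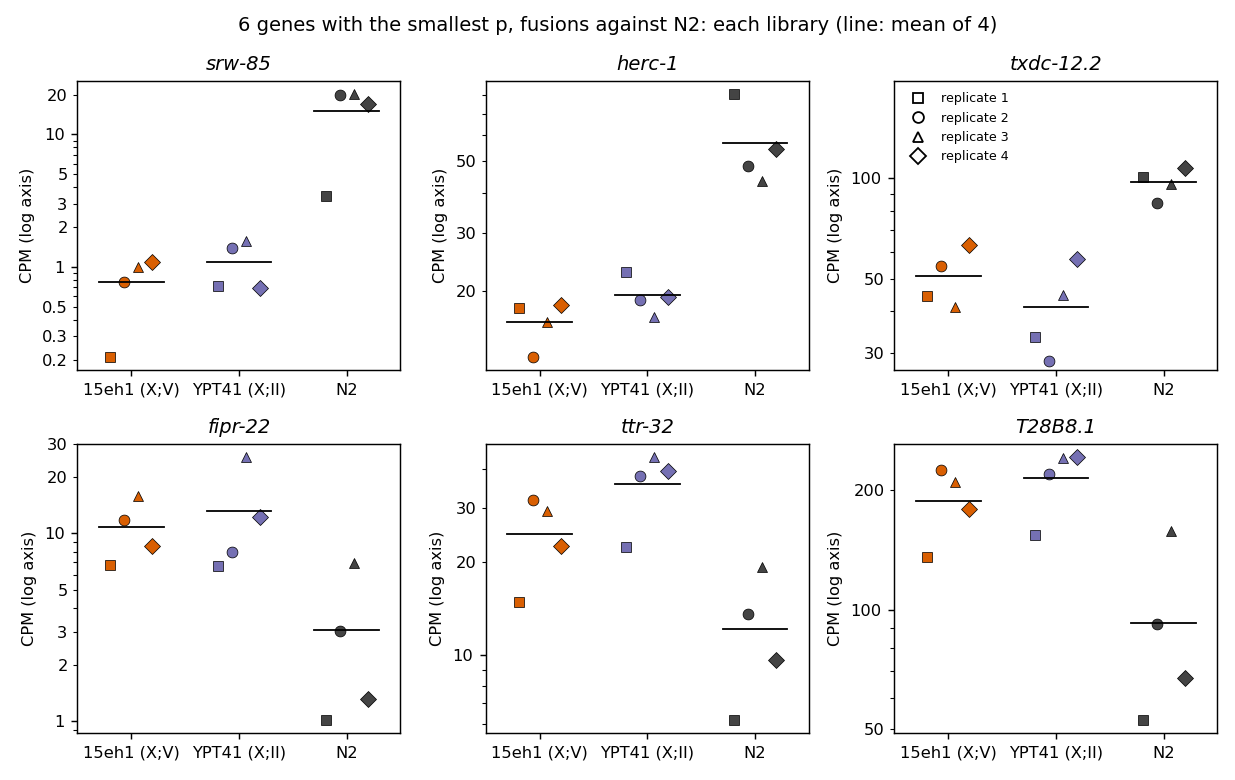
Levels of 6 genes in each library, in CPM on a log axis, for strains 15eh1 and YPT41 and for N2, with the symbol giving the replicate number and the line the mean of 4. For srw-85, herc-1 and txdc-12.2 no fusion library reaches an N2 library, while for fipr-22, ttr-32 and T28B8.1 each fusion library is above N2 of the same number but the groups overlap.

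At an unadjusted p under 0.05, 1026 genes (7.78%) were higher in the fusions and 347 (2.63%) were lower. All 8 fusion libraries were above N2 of the same number for 777 genes (5.89%), and all 8 were below it for 336 (2.55%). The zero point depended on the scaling. The median log2 fold change of all genes was 0.062 with TMM and −0.0057 with RLE scaling. The lean to the higher side was smaller without replicate 1. In replicates 2 to 4 alone, of the 13060 genes tested there too, 602 were higher and 445 lower at an unadjusted p under 0.05, and 981 genes had all 6 fusion libraries above N2 of the same number, against 959 with all below. After srw-85 and herc-1, the next smallest adjusted p was 0.0642 and the one after it 0.186 (edgeR). The genes next in rank were chosen from their values, and with edgeR none passed. All of those named in the next 3 paragraphs were among the 158 called by DESeq2.

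The third in rank was fipr-22, one of the fungus-induced-protein-related genes that encode small secreted peptides. It had a lowest, median and highest level of 6.67, 10.2 and 25.5 CPM in the fusions, against 1.02, 3.01, 6.92 and 1.31 CPM in N2 replicates 1 to 4. The groups overlapped only through N2 replicate 3. The log2 fold change was 2.17 ± 0.30 (SE, edgeR adjusted p = 0.0642), with 2.07 in 15eh1 and 2.24 in YPT41. Its relatives on chromosome I, fipr-23, fipr-24 and fipr-26, had log2 fold changes of 2.29, 2.11 and 2.88, and each was above N2 of the same number in 8 of 8 fusion libraries. At most 9.63 CPM was reached by any of these relatives, and reads shared among similar copies could be split or lost in counting.

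Lower in every fusion library than in every N2 library was txdc-12.2, on X, a thioredoxin-domain protein gene. It had a lowest, median and highest level of 28.4, 44.6 and 63.0 CPM in the fusions, against 101, 84.4, 96.3 and 108 CPM in N2 (log2 fold change −1.104 ± 0.18, SE, edgeR adjusted p = 0.186). The ABC transporter gene pgp-1 was at 6.02, 19.4 and 30.5 CPM (lowest, median, highest) in the fusions, and at 33, 49.3, 37.1 and 89.8 CPM in N2, again without overlap (log2 fold change −1.47, edgeR adjusted p = 0.313). A secreted protease inhibitor gene needed for molting, mlt-11, stood at 349, 531 and 849 CPM (lowest, median, highest) in the fusions and between 789 and 1457 CPM in N2, the groups overlapping through YPT41 replicates 2 and 3. This gene is among the 100 tested genes nearest the right end of V, a window that was lower as a whole in 15eh1, but it was lower in both strains, by −1.18 in 15eh1 and −0.94 in YPT41. F31D4.8, in the same window, had log2 fold changes of −1.46 in 15eh1 and −1.09 in YPT41.

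Higher in the fusions were ttr-32, a transthyretin-related gene, and T28B8.1, a gene without an assigned role. The levels of ttr-32 were 14.8, 30.5 and 43.7 CPM in the fusions (lowest, median, highest), against 6.2, 13.6, 19.4 and 9.64 CPM in N2. T28B8.1 was at 136, 214 and 242 CPM in the fusions and at 52.9, 92.1, 157 and 67.5 CPM in N2. The groups overlapped through replicate 1, that of 15eh1 lying within the N2 range for both genes and that of YPT41 for T28B8.1. The log2 fold changes were 1.37 ± 0.23 and 1.199 ± 0.20 (SE), each with an edgeR adjusted p of 0.186. Of the others in the first 22 by p, abf-6, an antibacterial-factor-related peptide gene on X, had a log2 fold change of 1.08, with 0.79 in 15eh1 and 1.33 in YPT41. The secreted C-type lectin family gene clec-229 was at no more than 0.451 CPM in the fusions and at 1.05 to 1.82 CPM in N2.

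The single-group test counts differences between 15eh1 and YPT41 as spread, so a second fit gave each strain its own level and tested the mean of both against N2. It called 69 genes (0.523%), 47 higher and 22 lower with edgeR at an adjusted p under 0.05, and with RLE scaling in place of TMM 53 genes, 27 higher and 26 lower. The signs were the same in both strains for 65 of the 69 and opposite for 4. A test of the mean favours genes that move the same way, and both strains are set against the same N2 libraries. The agreement in sign was therefore partly built in. Most of the calls leaned on YPT41: 68 were also called in that strain alone and 2 in 15eh1 alone, and YPT41 was further from N2 in 66. For 32 of the 69 the 2 strains differed from each other by their own test, and in each of these YPT41 was further from N2. The count itself was unstable, at 5 to 13 without any 1 of the N2 libraries (8, 6, 13 and 5 without replicates 1 to 4), 30, 17, 20 and 37 without 15eh1 replicates 1 to 4, and 51 to 83 without any 1 of the YPT41 libraries. It was 8 in replicates 2 to 4 alone and 5 without the block. The calls of higher genes were the less stable ones. With edgeR no gene was called higher without N2 replicate 1, 2 or 4 (1377, 1871 and 972 genes at an unadjusted p under 0.05), and 6 were without N2 replicate 3. In replicates 2 to 4 alone 1 gene was higher and 7 were lower. The higher genes described next from the mean of both strains carry that limit.

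**Figure D2:**
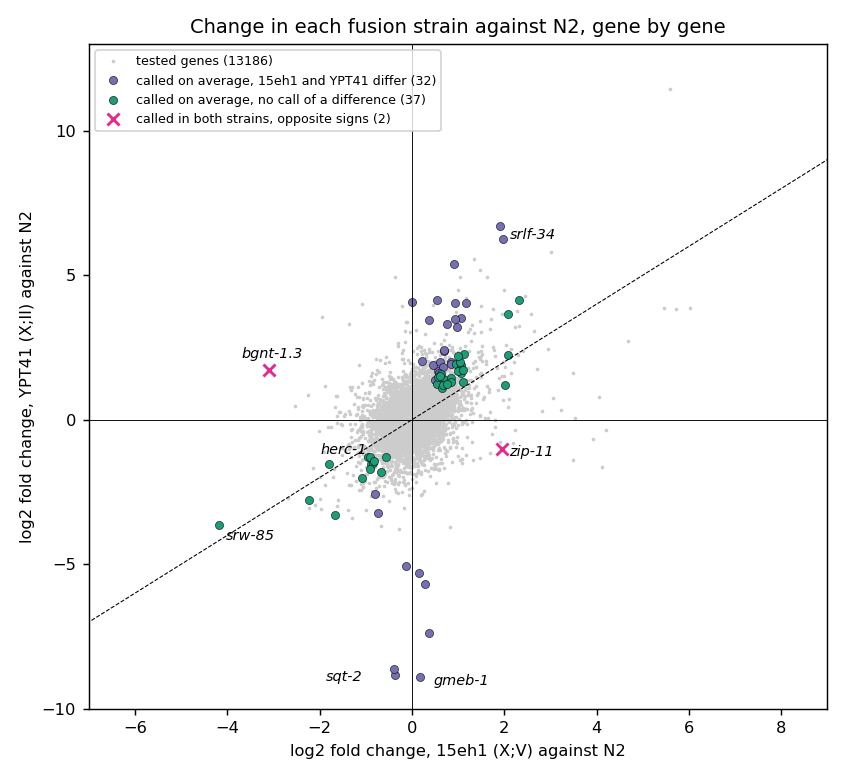
Log2 fold change against N2 in 15eh1 (x axis) and in YPT41 (y axis) for the 13186 tested genes, with the 69 genes called on average coloured by whether the strains differed, and the dashed line marking equal change. The axes share the N2 libraries, so a spread along the dashed line arises in part from N2 itself. For 66 of the 69 coloured genes YPT41 is further from N2, and srw-85 and herc-1 lie near the line.

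A difference between the strains was not called for 37 of the 69 genes, 24 of them higher and 13 lower than N2. Several belong to known groups. Among defence-related genes fipr-22, abf-6, dod-3 and the C-type lectin gene clec-52 were higher, and clec-229 and irg-8 were lower. The gene clec-52 is the 1 gene called on average but in neither strain alone, with log2 fold changes of 2.02 in 15eh1 and 1.198 in YPT41 (edgeR adjusted p = 0.0435 on average). The linker histone gene hil-1 was at 9.73, 12.63 and 38.1 CPM in the fusions (lowest, median, highest), against 3.25, 4.27, 9.40 and 6.30 CPM in N2, without overlap (1.53 on average, edgeR adjusted p = 0.0435).

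Metabolic and secreted-enzyme genes were also among the 37. Higher were nas-9, an astacin metalloprotease gene (1.44 on average), aakg-4, a gamma subunit of the AMP-activated kinase (1.15), and pnp-1, a purine nucleoside phosphorylase (0.87). Lower were elo-6, a fatty acid elongase (−0.92), pgp-1 (−1.55) and mlt-10, which is needed for molting (−1.13). The gene mlt-10 lies among the 100 tested genes nearest the left end of II. That window holds 8 of the 22 genes called lower on average, and for 7 of these 8 the strains differed, the reads being nearly absent in YPT41. For example the collagen gene sqt-2 was at 20.6, 77.2, 74.8 and 109 CPM in 15eh1, at 0.180, 0.332, 0 and 0.188 CPM in YPT41, and at 25.3, 110, 91.1 and 142 CPM in N2. Its neighbour gmeb-1 was at 37.9 to 73.5 CPM in 15eh1, at most 0.180 CPM in YPT41 and at 26.3 to 92.4 CPM in N2. In 15eh1 the log2 fold change was −0.37 for sqt-2, which was below N2 of the same number in each replicate, and 0.16 for gmeb-1, and neither was called (edgeR adjusted p = 0.9996 each). The gene best-3, in the same window, was at 3.45 to 17.3 CPM in 15eh1, at most 0.0901 CPM in YPT41 and at 1.32 to 13.2 CPM in N2.

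Several secreted-peptide genes, chosen from the 69 for their values, were called higher on average and in YPT41 but not in 15eh1. The gene cnc-4, of the caenacin family of antimicrobial peptides, was at 4.91, 14.4, 9.94 and 7.42 CPM in 15eh1 and at 24.2, 36.7, 40.6 and 66.5 CPM in YPT41, against 2.03, 5.04, 6.56 and 5.01 CPM in N2. Its level was above N2 of the same number in 8 of 8 libraries, and the log2 fold changes were 0.99 in 15eh1 and 3.21 in YPT41 (difference called, edgeR adjusted p = 0.00363). The gene nlp-34, of a related peptide family, was likewise above N2 in 8 of 8, by 0.54 in 15eh1 and 4.14 in YPT41. Levels of cnc-2, another caenacin gene, were 0.194 to 0.564 CPM in 15eh1, 2.43 to 15.9 CPM in YPT41 and at most 0.298 CPM in N2. Other genes of the 69 differed between the strains in the same way. For srlf-34 the log2 fold changes were 1.97 in 15eh1 and 6.25 in YPT41, and every fusion library was above every N2 library. The glycosyltransferase-family gene gtnt-25, among the 4 smallest p of 15eh1 against YPT41, was at 0.282 to 0.936 CPM in 15eh1, 5.41 to 14.5 CPM in YPT41 and 0.305 to 0.955 CPM in N2.

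One tested gene, suex-1 on chromosome II, had no count in any N2 library and at least 1 in every fusion library. It had 3, 3, 9 and 2 counts in 15eh1 and 97, 173, 47 and 855 counts in YPT41. Against a floor of 3 counts over the N2 group, its pooled CPM was at least 5.61-fold higher in 15eh1 and at least 556-fold higher in YPT41, counting error only. No tested gene was without counts in all 8 fusion libraries.

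Taken singly, the strains shared few called genes, and the small number of calls in 15eh1 set the upper limit of that overlap. In 15eh1 9 genes were called against N2 (0.0683%), 6 higher and 3 lower, and in YPT41 686 genes (5.20%), 541 higher and 145 lower. Both comparisons use the same N2 libraries. Of the 9, 5 were not called in YPT41 and 7 differed from YPT41 by their own test, in a direct comparison of 15eh1 with YPT41 that called 241 genes (1.83%), 66 higher and 175 lower in 15eh1. Of the 9, 4 were called in YPT41, beside 5.20% of all genes: 2 with the same sign, given above, and 2 with opposite signs. One of these is zip-11, a bZIP transcription factor gene, at 60.1, 31.2, 7.72 and 45.7 CPM in 15eh1, 7.30, 2.32, 1.56 and 7.19 CPM in YPT41 and 17.6, 6.31, 2.43 and 11.2 CPM in N2. In each replicate number 15eh1 was the highest and YPT41 the lowest of the strains. The other is bgnt-1.3, of a glycosyltransferase family, at 0.161 CPM or less in 15eh1, at 1.71 to 5.88 CPM in YPT41 and at 0.610 to 1.55 CPM in N2. As part of a single group, zip-11 had a log2 fold change of 1.14 (edgeR adjusted p = 0.600) and bgnt-1.3 one of 0.76 (edgeR adjusted p = 0.806).

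The 5 genes called in 15eh1 and not in YPT41 were called neither in the single group nor in the mean of both strains. In the single group the edgeR adjusted p was 0.412 for gst-24, 0.416 for pgp-8 and 0.494 for zipt-2.3. The glutathione S-transferase gene gst-24 was at 14.2, 134, 156 and 98.7 CPM in 15eh1, 4.60, 18.5, 9.48 and 34 CPM in YPT41 and 2.44, 16.6, 15.7 and 22.4 CPM in N2. The P-glycoprotein gene pgp-8, on X, was at 5.22 to 21.9 CPM in 15eh1, at 0.563 to 3.15 CPM in YPT41 and at 0.813 to 2.24 CPM in N2. For the zinc transporter family gene zipt-2.3 the log2 fold changes were 3.48 in 15eh1 and −1.38 in YPT41.

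Gene lists were described by their counts and medians beside those of all tested genes. Of all tested genes, 7478 (56.7%) had a log2 fold change above 0, with a median of 0.06. At an unadjusted p under 0.05, 7.78% were higher and 2.63% lower. With RLE scaling the median of all genes was −0.0057, so counts above 0 depend on the scaling. Neuropeptide genes stood highest. Of 111 tested, 108 were above 0, with a median of 0.62 (0.44 in 15eh1 and 0.86 in YPT41), and 52 were higher at an unadjusted p under 0.05 while none was lower. None passed the adjusted test of the single group, or of the mean, with edgeR, and 5 were called higher with DESeq2, among them flp-5, pdf-2 and nlp-3. In the strains singly, edgeR called 21 of the 111 higher in YPT41, beside 541 of all 13186 genes, and 0 in 15eh1. All 8 fusion libraries had a median above N2 of the same number, by 0.48, 0.28, 0.30 and 0.70 in 15eh1 and by 0.50, 0.03, 0.81 and 1.65 in YPT41. YPT41 replicate 2 was close to 0 and YPT41 replicate 4 was highest. The median was 0.37 without N2 replicate 4 and 0.39 without YPT41 replicates 3 and 4.

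Among the neuropeptides, flp-5, an FMRFamide-like peptide gene on X, was at 36.3, 87.7, 78.6 and 72.9 CPM in 15eh1 and at 48.2, 84.8, 110 and 155 CPM in YPT41, against 18.1, 57.3, 52.7 and 49.6 CPM in N2. In 8 of 8 fusion libraries it was above N2 of the same number, although replicate 1 of both fusions lay within the N2 range (log2 fold change 0.95 ± 0.23, SE, edgeR adjusted p = 0.352). For pdf-2, a pigment-dispersing-factor peptide gene, and nlp-3, both on X, the values were 0.79 ± 0.20 and 0.93 ± 0.24 (SE, edgeR adjusted p = 0.352 each), again with 8 of 8 above. Other neuronal markers lay to the same side by a smaller amount. Of 16 such genes, among them unc-25, egl-21 and unc-64, 14 were above 0, with a median of 0.19 and 1 higher at an unadjusted p under 0.05. In replicates 2 to 4 alone 10 of the 16 were above 0, with a median of 0.12 and 2 higher at that threshold. The summed level of these 16 genes, in CPM without TMM scaling, was 2578 to 3549 in the fusions and 1828 to 2700 in N2 in replicates 2 to 4. Over all replicates it was 1170 to 3549 in the fusions and 1070 to 2700 in N2. In whole worms, more cells of a type and more RNA per cell cannot be told apart, and the part of cell numbers in these values was not tested.

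**Figure D3:**
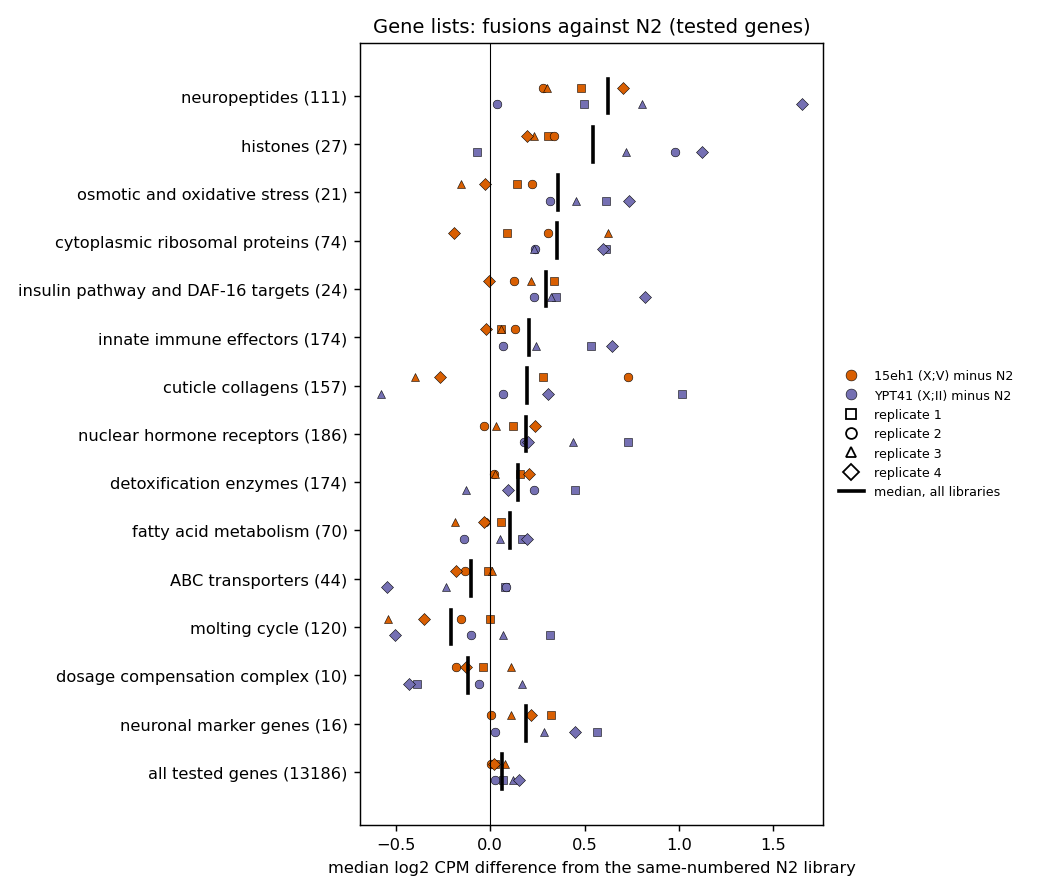
Median log2 CPM difference of each gene list between each fusion library and the N2 library of the same replicate number, with the number of tested genes in parentheses. The black bar is the median log2 fold change of all 8 fusion libraries against N2 in the fit, and a point right of 0 means higher in the fusion. The neuropeptide points all lie right of 0, and those of cuticle collagens lie on both sides.

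Histones and cytoplasmic ribosomal proteins also lay to the higher side. Of 27 tested histone genes 26 were above 0, with a median of 0.55 (0.15 in 15eh1 and 0.82 in YPT41) and 5 higher at an unadjusted p under 0.05. The histone median was 0.31 without YPT41 replicate 4 and 0.33 without N2 replicate 4. Besides hil-1, his-37 was at a median of 105 CPM in the fusions and at 26 to 102 CPM in N2 (0.88 ± 0.29, SE, edgeR adjusted p = 0.398). Of 74 tested ribosomal protein genes 73 were above 0, with a median of 0.35 (0.22 in 15eh1 and 0.45 in YPT41). The shift was shared over the list rather than large in single genes. At an unadjusted p under 0.05, 6 were higher (8.11%), near the 7.78% of all tested genes. The first by p, rps-9, had a log2 fold change of 0.63 ± 0.25 (SE, edgeR adjusted p = 0.424). In 15eh1 replicate 4 the ribosomal median was below N2, at −0.19. The median of the list was 0.23 without 15eh1 replicate 3, YPT41 replicate 1 or YPT41 replicate 4. Mitochondrial ribosomal proteins had 38 of 69 genes above 0 and a median of 0.03.

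Stress and defence lists were mixed. Of 24 genes of the insulin pathway and DAF-16 targets, 16 were above 0 (median 0.29), 9 were higher and 1 lower at an unadjusted p under 0.05, and the first examples are akt-2, a kinase of that pathway (0.87, edgeR adjusted p = 0.352), and dod-3 (1.71, edgeR adjusted p = 0.352). The median of that list was 0.18 without YPT41 replicate 1, without N2 replicate 1 and in replicates 2 to 4. The target dod-24 was lower than N2, at −0.74 in 15eh1 and −3.22 in YPT41. Of 174 innate immune effectors 114 were above 0 (median 0.20), with 34 higher (19.5%) and 9 lower (5.17%) at an unadjusted p under 0.05. On average over the strains 10 were called higher and 3 lower, beside 47 and 22 of all 13186 genes (0.523% together). The median was 0.10 in 15eh1 and 0.35 in YPT41, and over both 0.10 to 0.13 without 15eh1 replicate 3, YPT41 replicate 1, YPT41 replicate 4, N2 replicate 1 or N2 replicate 4. Of 174 detoxification enzymes 109 were above 0 (median 0.15), with 24 higher (13.8%) and 5 lower (2.87%) at that threshold. The detoxification median was 0.06 without N2 replicate 1 and in replicates 2 to 4, and 0.07 to 0.09 without 15eh1 replicate 2 or 3 or YPT41 replicate 1 or 2. The median of all genes was 0.06 over all replicates and 0.02 in replicates 2 to 4. Osmotic and oxidative stress genes had a median of 0.36 over 21 genes, of 0.01 in 15eh1 and 0.60 in YPT41. It was 0.18 without YPT41 replicate 1, without N2 replicate 1 and in replicates 2 to 4, and 0.23 without YPT41 replicate 4.

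Nuclear hormone receptors, ligand-regulated transcription factors of which the worm has a large family, had 138 of 186 genes above 0 (median 0.19), with 21 higher (11.3%) and 1 lower at an unadjusted p under 0.05. Their median was 0.08 without YPT41 replicate 1 and 0.12 without YPT41 replicate 2 or N2 replicate 1, and in replicates 2 to 4 it was 0.12, with 113 of 186 above 0 and 8 higher. Of 157 cuticle collagens 97 were above 0, with a median of 0.20 that turned to −0.14 in replicates 2 to 4 alone. Among 70 genes of fatty acid metabolism 37 (52.9%) were above 0, with 6 higher (8.57%) and 9 lower (12.9%) at that threshold. The shares above 0 and higher lie near those of all genes. Of those lower, cpt-4 is a carnitine palmitoyltransferase gene (−0.78, edgeR adjusted p = 0.313).

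Other lists had medians below 0. Of 120 tested genes of the molting cycle only 36 were above 0, with a median of −0.21 (−0.27 in 15eh1 and −0.12 in YPT41), 7 higher and 13 lower at an unadjusted p under 0.05. The median was −0.32 in replicates 2 to 4 and without N2 replicate 1. Replicate 1 of YPT41 stood at 0.32 above N2. Glycosyltransferases of the bgnt, gtnt and gly families had 16 of 64 above 0 and a median of −0.24, and ABC transporters 15 of 44 and −0.10, with 3 higher and 8 lower at that threshold. The median of ABC transporters ran from −0.23 without N2 replicate 1 to −0.02 without N2 replicate 4. It was −0.16 to −0.19 without 15eh1 replicate 2 or 3 or YPT41 replicate 2, and −0.04 to −0.06 without N2 replicate 3 or YPT41 replicate 4. The lowest median of the lists was that of the heterochronic pathway, which times larval development, at −0.31 with 3 of 14 above 0. Argonaute and small RNA genes had 8 of 34 above 0 and a median of −0.18, sex determination 6 of 14 and −0.14, meiotic chromosome pairing 6 of 18 and −0.11, histone methylation enzymes 9 of 25 and −0.09, telomere and DNA damage genes 11 of 28 and −0.07, and heat shock genes 12 of 25 and −0.07. Single libraries differed widely in these lists. The heterochronic median was −0.88 and −0.74 in YPT41 replicates 1 and 4, and 0.02 in 15eh1 replicate 2 and YPT41 replicate 3. That of meiotic pairing ran from −1.02 in 15eh1 replicate 4 to 0.54 in YPT41 replicate 2. For heat shock genes it ran from −0.57 in YPT41 replicate 3 to 0.76 in YPT41 replicate 4. Molting genes are known to be expressed in pulses within each larval stage.

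No gene of the dosage compensation complex passed the test. None of the 10 was called with edgeR in the single group, in the mean or in either strain, none was called with DESeq2, and none had an unadjusted p under 0.05 in the single group. The median was −0.12, with 2 of 10 above 0. The gene sdc-2, whose hermaphrodite-specific product starts assembly of the complex on X, had the largest size, −0.39 with a 95% interval of −0.99 to 0.21, at 24.2, 23.3, 21.9 and 22.9 CPM in 15eh1, 19.1, 23.7, 31.9 and 6.94 CPM in YPT41 and 22.7, 33.6, 27.7 and 27.3 CPM in N2. The groups overlapped, YPT41 replicate 4 being the lowest. For dpy-27, the SMC subunit particular to this complex, the value was −0.10 (95% interval −0.42 to 0.21), and for its partner mix-1, shared with the mitotic condensins, −0.16 (−0.54 to 0.22). The demethylase gene dpy-21 stood at −0.22 and the condensin subunit genes dpy-26, dpy-28 and capg-1 at −0.12, 0.22 and −0.24. For sdc-1 and sdc-3, which help to recruit the complex, and dpy-30, shared with a histone methyltransferase complex, the values were −0.12, −0.04 and 0.07. Other condensin and cohesin genes had 1 of 17 above 0 and a median of −0.18, with none called by edgeR or DESeq2 and none at an unadjusted p under 0.05. Their library medians were −0.47 and −0.76 in YPT41 replicates 1 and 4, and 0.07 in replicate 3 of both strains.

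On the X chromosome, the part joined in both strains, the median log2 fold change was 0.12 over 1998 genes (0.06 in 15eh1 and 0.18 in YPT41), and 1266 (63.4%) were above 0. Medians of the autosomes ranged from 0.02 on I to 0.08 on V. The mean log2 CPM of X genes minus that of autosomal genes was −0.65, 0.0028, −0.0039 and −0.03 in 15eh1 and −0.58, −0.06, 0.14 and 0.15 in YPT41, against −0.69, 0.0077, −0.05 and −0.08 in N2. Replicate 1 was low in every strain, and the groups overlapped. Fusion libraries were above N2 of the same number in 6 of 8 pairs, by 0.07 ± 0.10 on average (SD of 8 paired differences, which share the N2 libraries). An exact two-sided permutation test that exchanged labels within replicate numbers (81 arrangements, smallest possible p = 0.0123) gave p = 0.160. In replicates 2 to 4 alone the difference was 0.07 (exact permutation p = 0.296). It was 0.15 without 15eh1 replicate 1, 0.14 without YPT41 replicate 1, 0.05 without 15eh1 replicates 2 or 3, 0.03 without YPT41 replicates 3 or 4 and 0.04 without N2 replicate 4, always with the fusions higher and an exact permutation p of 0.0926 or more. These were differences of group means, not paired by replicate number. Leaving out a fusion library of the low replicate 1 thus raised the fusion mean by itself. For an N2 library, all libraries of its number were left out of the difference.

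At the chromosome ends the medians of the fusion strains lay apart. Among the 100 tested genes nearest the left end of II the median was 0.02 in 15eh1 and −0.45 in YPT41, and among those nearest the right end of V it was −0.53 in 15eh1 and 0.20 in YPT41. Taken as one group, these windows had medians of −0.21 and −0.06, smaller than in the strain concerned. The ends of X had medians of 0.07 on the left and 0.20 on the right, with 0.04 and 0.09 in 15eh1 and 0.12 and 0.31 in YPT41. At the right end of X all 8 fusion libraries had a median above N2 of the same number, while at the left end 5 of 8 did.

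**Figure D4:**
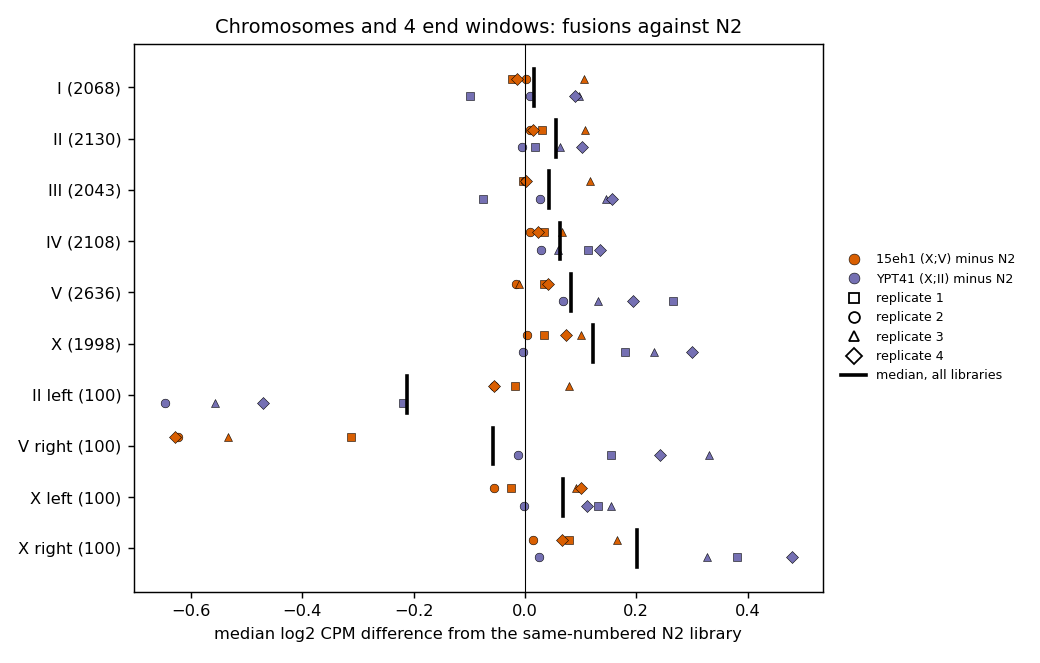
Median log2 CPM difference between each fusion library and the N2 library of the same number for each chromosome and for 4 windows of 100 tested genes at chromosome ends, with the number of tested genes in parentheses. Orange points (15eh1) are lowest at the right end of V and purple points (YPT41) at the left end of II, and no other row has the points of 1 strain wholly below 0.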

How the data were processed

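The authors deposited 1 table of raw read counts per gene for each of the 12 RNA-seq libraries, the unit read from the whole-number values and the summary lines. Per the submitters' processing notes, TopHat2 2.1.1, HTSeq, Bowtie 1.2.0, SAMtools 1.6, MACS 1.4.3, CASAVA 1.8 and bedtools were used, with no role given. Build, annotation and strand setting: not given in the sources used here. Thus antisense and overlapping genes, and near-identical copies, cannot be told apart. Summary lines were removed. They held 2.48% to 4.25% of a library as outside any feature, 0.656% to 0.893% as ambiguous and 13.2% to 22.7% as aligned to several places. ChIP-seq and input samples, 153 in number with 3 of no group, were not analysed here.

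Of 20389 gene identifiers, 19879 matched the RefSeq gene table (WBcel235), from which symbols, chromosomes and gene order were taken. In a chi-square comparison of counts no pair of libraries of a strain agreed within sampling noise (at least 22.3 per gene). A floor of 3 counts is 0.0960 to 0.364 CPM in 1 library, and floors cover counting error only.

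The 8 fusion libraries were tested against N2 with edgeR 4.0.16 (R 4.3.3): TMM scaling, filterByExpr by strain, quasi-likelihood tests with the replicate number and the group as terms, and two-sided p-values adjusted by the Benjamini-Hochberg method (threshold 0.05). A second fit had the 3 strains as levels. DESeq2 1.42.0 was an alternative. Log2 CPM used a prior count of 2. The scripts were tested on simulated data. Libraries with the same replicate number deviated together: the 12 correlations of their deviations lay between 0.319 and 0.942 (limit 0.1), and at −0.12 to 0.44 (4 of 9 above 0.1) among replicates 2 to 4 alone, so the pairing rests largely on replicate 1.

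The members, lists and tests were chosen with earlier results of these data known. Genes named by rule were the 12 largest rises and falls among called genes with a symbol, a group mean of at least 1 CPM, the same sign in both strains and all 8 fusion libraries on 1 side of N2 of the same number, 2 per list with at least 3 called, the 4 smallest p of 15eh1 against YPT41, and all dosage compensation genes. The rule yielded srw-85, herc-1, gmeb-1, sqt-2, gtnt-25, best-3 and the 10 dosage compensation genes. All others were named after their values were seen. Alternatives were the block, scaling, filter, tool, strain levels, replicates 2 to 4, YPT41 without replicates 3 and 4, and leaving out each library. Those for the mean of both strains, for list medians and for leaving out libraries in the strains singly were added after seeing the data.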

Additional observations from a re-analysis of the deposited data

Results flagged for a closer look

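In 148 groups of 4 or 8 libraries, values stood apart from the rest of their group 20 times by Dixon's criterion. Chance meets that criterion in about 1 of 20 separate groups. The groups of 8 contain the fusion groups of 4, so the groups are not independent. The same value was flagged in both for mix-1, capg-1 and C25G4.7. Most of the flagged values belonged to replicate 1, whose libraries hold the vitellogenin transcripts. Of the 10 dosage compensation genes, 4 stood apart as high there: dpy-26 at 132.1 CPM in 15eh1 and 130 in N2, dpy-30 at 176.4 in 15eh1 (among the 8 fusion libraries) and 202.2 in N2, mix-1 at 170.8 in 15eh1, and capg-1 at 210.7 in 15eh1 and 239.3 in N2. In contrast dpy-27 was lowest in replicate 1 of each strain (52.8 CPM in 15eh1, 61.7 in YPT41 and 50.5 in N2). The genes C25G4.7 (6.67 CPM in YPT41 and 1.32 in N2) and Y37D8A.4 (56.8 CPM in 15eh1) were also highest in replicate 1. The peptide gene abf-6 was lowest there, at 5.85 CPM in 15eh1 and 3.36 in N2, as was X relative to autosomes, at −0.65 in 15eh1 and −0.69 in N2. Outside replicate 1, dpy-30 was high in YPT41 replicate 4 (121.4 CPM, against at most 93.4 in the others) and sdc-1 in YPT41 replicate 3 (15.6 CPM, against at most 11.8), and gtnt-25 in N2 replicate 4 (0.955 CPM, against at most 0.413).

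For 20 of the genes named, the effect differed between the fusion strains by the test of 15eh1 against YPT41 (edgeR adjusted p from 3.90e-07 to 0.0393). Higher in 15eh1, on the log2 scale, were gmeb-1 (9.05), sqt-2 (8.47), best-3 (7.74), Y39G8B.7 (5.75), zipt-2.3 (4.86), F44E7.5 (4.56), pgp-8 (3.48), zip-11 (2.97), gst-24 (2.51) and dod-24 (2.48). Lower in 15eh1 were suex-1 (−5.84, from 17 counts against 1172), bgnt-1.3 (−4.82), cnc-6 (−4.79), cnc-2 (−4.48), srlf-34 (−4.28), gtnt-25 (−4.09), nlp-34 (−3.60), cnc-4 (−2.22), nhr-58 (−1.52) and his-37 (−0.92).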

How the results depend on the processing

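The count of 2 genes for the single group was 2 in each of the 12 fits that left out 1 library (2 to 2), with RLE scaling, without the replicate block, in replicates 2 to 4 and without YPT41 replicates 3 and 4, and the genes were srw-85 and herc-1 each time. It was 7 without the low-count filter, 69 for the mean of both strains and 158 with DESeq2. Without the replicate block 15eh1 had 0 calls with edgeR (206 genes at an unadjusted p under 0.05), YPT41 29, 15eh1 against YPT41 24 and the mean of both strains 5; in replicates 2 to 4 with the block, these counts were 1 in 15eh1, 160 in YPT41, 69 between the strains and 8 for the mean. Genes with every fusion library above N2 of the same number were 981 in replicates 2 to 4, against 777 in all, and genes with every one below 959, against 336. The mean of both strains called 135 genes without YPT41 replicates 3 and 4, and with RLE scaling 53, of which 27 were higher and 26 lower, against 47 and 22 with TMM. RLE moved the median of all genes by −0.07. Leaving out 1 library gave 2 to 13 calls in 15eh1 (lowest without N2 replicates 1, 3 or 4), 91 to 945 in YPT41 (lowest without N2 replicate 4, highest without YPT41 replicate 2), 57 to 342 for 15eh1 against YPT41 (lowest without 15eh1 replicate 3) and 5 to 83 for the mean of both strains. X relative to autosomes stayed on the same side of the threshold in every alternative (0.03 to 0.15, as group means not paired by replicate number, over the 12 fits that left out 1 library). The median of cuticle collagens changed sign in replicates 2 to 4 (−0.14), without YPT41 replicate 1 (−0.08) and without N2 replicate 1 (−0.14), and was −0.14 to 0.48 over the fits that left out 1 library. The median of fatty acid metabolism changed sign in replicates 2 to 4 (−0.015) and without 15eh1 replicate 2, YPT41 replicate 1, N2 replicate 1 or N2 replicate 4, and was −0.033 to 0.14 over these fits. Of the 12 lists put through these alternatives, the other 10 kept their sign in each. For lists outside these 12 only replicates 2 to 4 were looked at. There the median of mitochondrial ribosomal proteins turned to −0.014, and that of the bgnt, gtnt and gly glycosyltransferases was −0.40. No named gene called in the single group changed sign in that test, and dpy-30, sdc-3 and bgnt-1.3, which were not called in the single group, did. The causes were not tested.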
